A study of Saccharomyces cerevisiae with 36 samples.

Results

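M22 is a non-laboratory strain of the yeast Saccharomyces cerevisiae, and the data described here are its transcript changes after 30 min in ethanol. The members are the 3 arrays on which RNA of M22 taken at 30 min was hybridised together with RNA of M22 before ethanol, out of 36 arrays in the series. All open reading frames with a value on at least 2 of these arrays were used, which were 5501 of the 6295 in the table. Of the others, 353 had a value on 1 array and 441 had none.

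The series compared the ethanol response of a laboratory strain with that of wild strains, on arrays that carry a pair of RNA samples in different dyes. Cells grew in log phase in YPD, a rich glucose medium, at 30 °C, and ethanol was added to 5% by volume. All M22 arrays compare the strain with itself, so both samples on an array share its genotype, and no mutation or transgene is named in its label. Used beside them were 3 arrays each of DBY8268, a laboratory strain, and YPS163, another wild strain, at 30 min in 5% ethanol against the same strain in log phase. A further 3 arrays set M22 against DBY8268 in log phase without ethanol, and 1 array each followed M22 at 15, 45 and 60 min. The label of the first M22 array at 30 min places it in that time course. Single time points are described as biological triplicates in the series text, but the labels do not name the cultures.

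Ethanol at this dose disturbs membranes and protein folding, and yeast answers it with a broad stress programme. In that programme the factors Msn2 and Msn4 act on general stress genes through stress response elements, and Hsf1 acts on chaperone genes. Genes for making ribosomes usually fall at the same time, as they do under many other stresses.

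Each value is a log2 ratio of ethanol over unstressed cells, so 1 is a doubling and -1 a halving. Both the base and this direction are readings of the values and are likely but not certain. A ratio shows a gene's share of the RNA on the array, so a change per cell and a change in the kinds of cell in the culture cannot be told apart. "Rose", "fell", "higher" and "lower" are used only for genes with an adjusted p under 0.05 in limma, which fitted 9 groups of arrays together. Some of these groups hold arrays of YPS163 derivatives, including strains with HAP1 or MSN2 deleted. Such arrays entered only the shared estimate of spread, but every call rests on that estimate. Errors are the SD over the M22 arrays, or the standard error (SE) for a difference between groups.

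The M22 arrays held 5081 to 5817 values and correlated with each other at 0.875 to 0.905 across genes, which are not independent replicates. The median SD over genes was 0.32. In 145 genes with 3 values it was above 1, and array 2 lay farthest from the median of the 3 in 89 of these. Array 2 is also the one with the dyes exchanged, so dye and replicate cannot be told apart within M22.

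M22 changed most of its transcripts. Of 5501 genes tested, 1774 rose, which is 32.2%, and 1638 fell, which is 29.8%, so 62% were called in either direction. At least 2-fold rises numbered 862 (15.7%) and at least 2-fold falls 854 (15.5%). The sign was the same on every M22 array with a value in 3288 of the 3412 called genes. The median over all tested genes was 0.03. Counts in the gene lists below are to be read beside the 32.2% up and 29.8% down over all genes.

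The largest rise was in HSP12, a small stress protein that binds membranes. Its log2 ratio was 8.49, 7.99 and 8.40 on arrays 1, 2 and 3, a mean of 8.29 ± 0.27 (SD, n = 3) and 314-fold (adjusted p = 4.44e-10). All 3 arrays were close together. RGI1, a gene induced under respiratory growth, stood at 8.87, 7.73 and 7.51, with a mean of 8.04 ± 0.73 and array 1 highest. The next places belonged largely to enzymes of glucose metabolism. GLK1, which encodes glucokinase, stood at 6.61, 7.11 and 7.35 (7.02 ± 0.38, 130-fold). GPM2, a relative of phosphoglycerate mutase, stood at 7.53, 7.11 and 6.36, and PGM2, the main phosphoglucomutase, at 6.69, 6.78 and 7.05 (6.84 ± 0.19, 115-fold). TSL1, a subunit of the trehalose synthase complex, reached 6.45, 6.47 and 6.72, and the hexokinase gene HXK1 6.29, 6.09 and 6.37. These values were far from 0 on every array and overlapped among the genes.

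The remaining genes among the 12 largest rises were RTC3 at 6.53 ± 0.87, the glutamate decarboxylase gene GAD1 at 5.99 ± 0.38, DAD3 of the kinetochore-binding Dam1 complex at 5.95 ± 0.40, EMI2, a relative of GLK1, at 5.80 ± 0.48, and the unnamed frame YCL042W at 6.69 ± 0.37. YCL042W overlaps GLK1 in the R64 annotation of the S288c genome, and which transcript its spot takes up was not tested. RTC3 varied most of these, from 5.64 on array 1 to 7.38 on array 2.

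Among the 12 largest falls, 6 were genes of ribosome assembly. SSF1, needed for the large subunit, stood at -2.27, -3.60 and -4.38 (-3.42 ± 1.07), and NOP15 at -2.04, -3.23 and -4.90 (-3.39 ± 1.44). In both, array 1 showed the smallest fall and array 3 the largest. RRP12, which acts in export of both subunits, was steadier at -2.70, -3.79 and -3.37 (-3.29 ± 0.55, 9.76-fold lower). NOP7 followed at -3.29 ± 0.77, BRX1 at -3.24 ± 0.63 and KRE33, an RNA acetyltransferase of the small subunit, at -3.17 ± 0.29. Of the others, SYO1, which carries ribosomal proteins into the nucleus, stood at -3.15 ± 0.40 and RMT2, a methyltransferase of a ribosomal protein, at -3.23 ± 0.81.

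The largest fall of all was in BSC1, at -3.52, -4.37 and -3.20 (-3.70 ± 0.60, 13-fold lower, adjusted p = 5.26e-11). Its neighbours YDL038C and PRM7, the latter named for its regulation by pheromone, stood at -3.60 ± 0.47 and -3.40 ± 0.23. These 3 frames lie next to each other and moved to a like extent, so they are counted here as 1 locus and not as 3 observations. The ferric reductase gene FRE4 was the last of the 12, at -2.99, -3.45 and -2.95 (-3.13 ± 0.28).

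**Figure D1:**
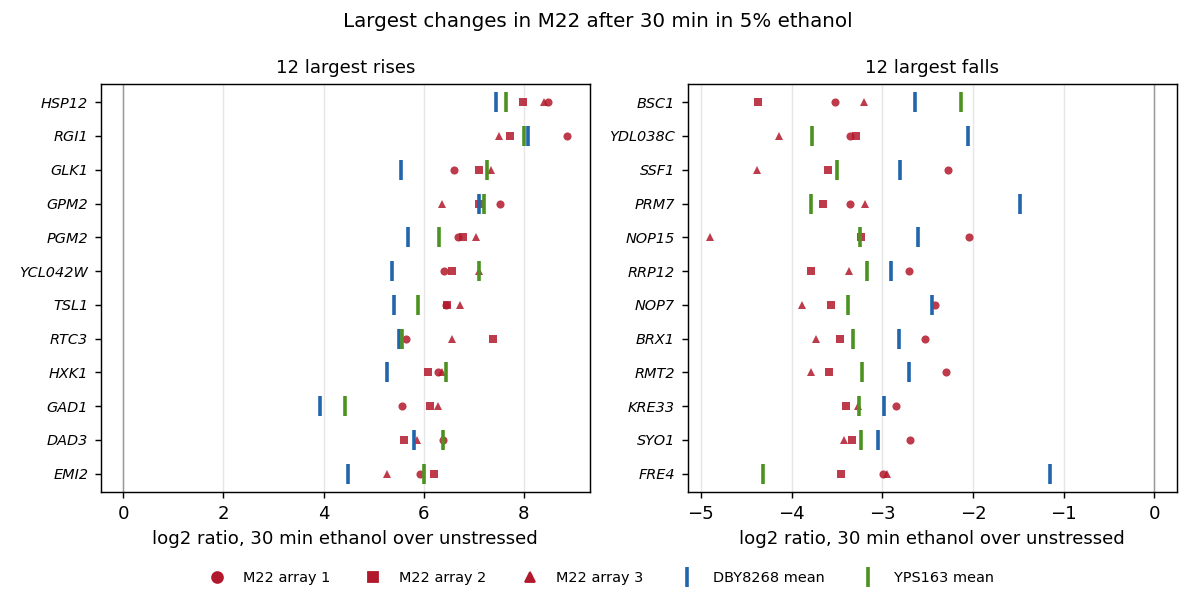
Log2 ratios of the 12 genes with the largest rise (left) and fall (right) in M22, with each M22 array as a red symbol and the means of DBY8268 and YPS163 as blue and green bars. The 3 M22 arrays of HSP12 lie between 7.99 and 8.49, and those of NOP15 spread from -2.04 to -4.90.

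General stress genes rose together in M22. Of 43 tested, 38 rose, none fell and 5 did not pass, with a median of 3.41 against 0.03 over all genes. The list was led by HSP12, RGI1 and GLK1, and the 5 were GRE1, MOH1, PAI3, NQM1 and HSP32. The factors that act on it changed little. MSN2 rose by 0.53 ± 0.25, with 0.24, 0.67 and 0.67 on the arrays, and MSN4 by 0.54 ± 0.25. The MSN4 call was lost without M22 array 2 or array 3.

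Of 25 heat shock chaperone genes 22 rose, with a median of 1.54. HSP26, a small heat shock protein, stood at 7.41 on array 1 and 7.48 on array 3 (n = 2, 174-fold), with no value on array 2. The Hsp70 gene SSA4 stood at 6.07, 5.16 and 5.13 (5.45 ± 0.53) and the aggregate-binding HSP42 at 5.76, 5.61 and 4.47. YDJ1, an Hsp40 co-chaperone of the cytosol, went the other way, at -0.62, -0.98 and -0.82 (-0.81 ± 0.18, adjusted p = 2.95e-05). SSC1 and FES1 did not pass. HSF1 itself rose by 0.82 ± 0.67, but its value on array 2 was 1.59 against 0.50 and 0.36, and without that array it did not pass.

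Folding and breakdown of proteins also rose. Of 19 genes for folding in the endoplasmic reticulum 14 rose and none fell, with a median of 0.88. KAR2, the Hsp70 of that compartment, stood at 2.95, 2.65 and 2.87 (2.82 ± 0.16), and the disulfide isomerase relative EUG1 at 2.34 ± 0.11. The oxidase ERO1 stood at 2.34 ± 0.37. HAC1 and IRE1, regulators of the unfolded protein response singled out after their values were seen, did not pass. Proteasome genes rose in 26 of 29 cases with none falling, by less than the chaperones (median 0.80, highest 1.25). RPN4, the factor that activates them, rose by 1.24 ± 0.11. Vacuolar proteolysis and autophagy had 25 of 30 genes up and a median of 1.53, led by PBI2, an inhibitor of vacuolar protease B, at 4.88 ± 0.62. The vacuolar aminopeptidase gene APE1 stood at 3.30, 5.73 and 3.78, with array 2 apart, and ATG8, which coats autophagosomes, at 3.60, 3.63 and 3.45. ATG5 was the member that fell, at -0.88 ± 0.39.

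Genes for storage carbohydrates rose nearly without exception. All but 1 of the 21 tested genes of trehalose and glycogen metabolism were up, with a median of 2.99. After PGM2 and TSL1 came GPH1, glycogen phosphorylase, at 5.79, 5.67 and 5.80 (5.75 ± 0.07, 53.9-fold). Genes for making and for breaking down these stores are both among the members. The exception was PGM1, the minor phosphoglucomutase, at -0.86, -0.74 and -0.27 (-0.62 ± 0.31).

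Related enzymes differed widely in some pairs and little in others. Of 24 pairs of related genes set side by side, the first gene rose and the second fell in 2, both rose in 12, and the first rose while the second did not pass in 3. PGM2 exceeded PGM1 by 7.46 ± 0.13 within the same arrays (SD, n = 3). GLK1 exceeded HXK2, the hexokinase of growth on glucose, by 6.85 ± 0.58, with HXK2 at 0.35, 0.22 and -0.06 and not passing. ALD4, a mitochondrial aldehyde dehydrogenase, stood at 4.35 and 4.96 on 2 arrays, while the cytosolic ALD6 fell by 1.86 ± 0.57. CTT1, the cytosolic catalase, rose by 4.72 ± 0.22 and the peroxisomal CTA1 by 0.46 ± 0.31. The stress-induced SSE2, an Hsp110, stood at 4.73 ± 0.69 and its constitutive partner SSE1 at 0.51 ± 0.31. HSP82 and HSC82, the Hsp90 genes, stood at 0.67 ± 0.44 and 0.79 ± 0.15. The citrate synthases CIT2 and CIT1 both rose, at 3.79 ± 0.25 and 2.94 ± 0.23, with CIT2 above CIT1 by 0.85 ± 0.09 within arrays. Whether probes of close relatives take up each other's transcripts was not tested. The CTA1 call was lost without array 1 or array 2, and that of SSE1 without array 3.

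**Figure D2:**
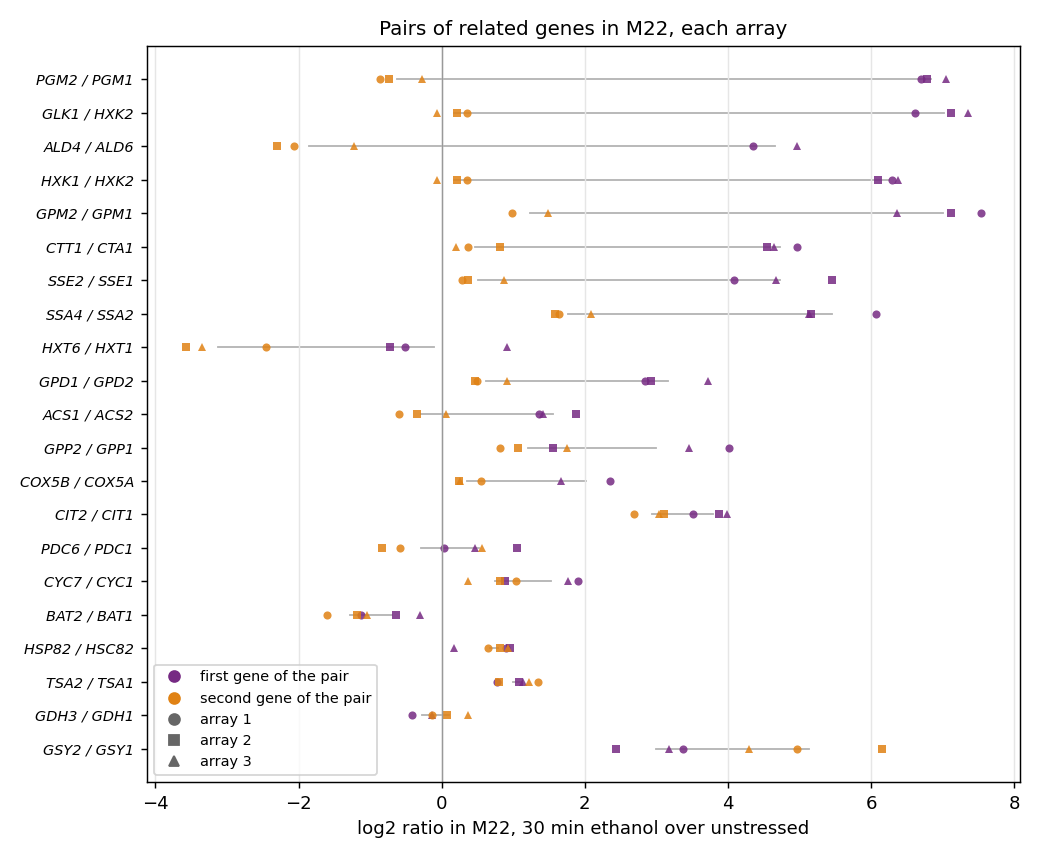
Log2 ratios in M22 of both genes of each pair in which both were tested, with 1 symbol per array and a grey line between the means. The pairs are ordered by the gap, from PGM2 over PGM1 at the top to GSY2 below GSY1 at the bottom.

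Glycolysis itself was only partly measured. Of 24 listed genes, 15 were tested, with 9 up, 1 down and 5 not passing. The fall was in PFK27, a kinase that makes a regulator of phosphofructokinase, at -0.75 ± 0.30. The abundant ENO1, ENO2, TDH1 and TDH3 had a value on array 3 alone, of 2.37, 2.23, 2.02 and 2.02, and were not tested. Hexose transporters and sensors had 6 genes down and 2 up of 17 (35.3% and 11.8%). HXT1, the low-affinity transporter, stood at -2.46, -3.57 and -3.35 (-3.13 ± 0.59), the high-affinity HXT2 at -2.89 ± 0.65 and HXT4 at -2.13 ± 0.35. The glucose sensor SNF3 rose by 1.20 ± 0.30.

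Mitochondrial carbon metabolism was mostly up. The TCA and glyoxylate cycle had 19 genes up and 3 down of 26, with a median of 0.96. CIT2 stood at 3.51, 3.88 and 3.98, and the pyruvate carboxylase gene PYC1 at 2.69, 2.79 and 2.96. Among the falls, the malic enzyme gene MAE1 stood at -2.46 ± 0.38 and PYC2 at -0.87 ± 0.27. For the respiratory chain and ATP synthase, 26 of 39 genes rose and 3 fell, with a lower median of 0.53. CYB2, the lactate dehydrogenase that feeds cytochrome c, stood at 5.33, 5.64 and 4.65 (5.21 ± 0.51). STF1, an inhibitor of ATP hydrolysis, stood at 3.38 ± 0.34, and NDE1, an external NADH dehydrogenase, at -1.49 ± 0.47. With arrays scaled to the same spread, 11 respiratory genes rose and none fell.

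Ethanol and acetate metabolism was divided, with 9 genes up and 3 down of 19. ALD4, ALD3 at 2.96 ± 1.27 and the alcohol dehydrogenase gene ADH5 at 2.94 ± 0.86 led the rises. ALD5, the other mitochondrial aldehyde dehydrogenase, fell by 2.36 ± 0.09 with its arrays close together, and ADH6 fell by 0.80 ± 0.33. ALD3 was uneven, at 1.54, 3.96 and 3.39. Glycerol metabolism had 7 of 8 genes up, led by GPD1, the osmotically induced glycerol-3-phosphate dehydrogenase, at 3.16 ± 0.48, and by GUT2, which oxidises its product in mitochondria, at 3.07 ± 0.48.

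Defence against oxidants had 15 genes up and 6 down of 28. CTT1 stood at 4.97, 4.55 and 4.64 (26.4-fold), the mitochondrial peroxiredoxin PRX1 at 4.08, 4.44 and 3.69 and the glutaredoxin GRX1 at 3.61, 2.84 and 2.50. Falls were smaller, with GPX2 at -1.74 ± 0.32 and the superoxide dismutase gene SOD1 at -0.48, -0.40 and -0.42. GSH2, of glutathione synthesis, stood at -0.29, -2.43 and 0.08, and did not pass without array 2. Peroxisomal and fatty acid oxidation genes had 10 up and 4 down of 27 (37% and 14.8%). CAT2, carnitine acetyltransferase, at 1.49 ± 0.25 was the highest of these and FAA4, a fatty acyl-CoA synthetase, at -1.32 ± 0.33 the lowest.

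The machinery for making ribosomes fell as a whole. All 123 tested ribosome biogenesis genes fell, between -1.10 and -3.42, with a median of -2.32. The list median was -1.99 on array 1, -2.30 on array 2 and -2.68 on array 3. Of 129 genes for cytosolic ribosomal proteins 126 fell, with a median of -1.49. RPS0A stood at -1.66, -2.26 and -1.63 (-1.85 ± 0.36). The 3 that did not pass were RPL22B at -0.36 ± 0.59 and the near-identical RPL41A and RPL41B. Genes of this group exist largely as near-identical copies, so values of single copies are uncertain.

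Subunits and factors of RNA polymerases I and III, which transcribe the ribosomal and transfer RNAs, had 19 genes down of 22 and a median of -1.56. RPA135, the second largest subunit of polymerase I, stood at -2.64, -3.42 and -2.70 (-2.92 ± 0.43). RRN10 was called up at 0.37 ± 0.40, a call that was lost without array 2. Translation factors fell in 30 of 34 cases and rose in none, with the elongation factor YEF3 lowest at -2.04 ± 0.44. The 4 that did not pass were TEF1, TEF2, CAM1 and TIF4632.

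**Figure D3:**
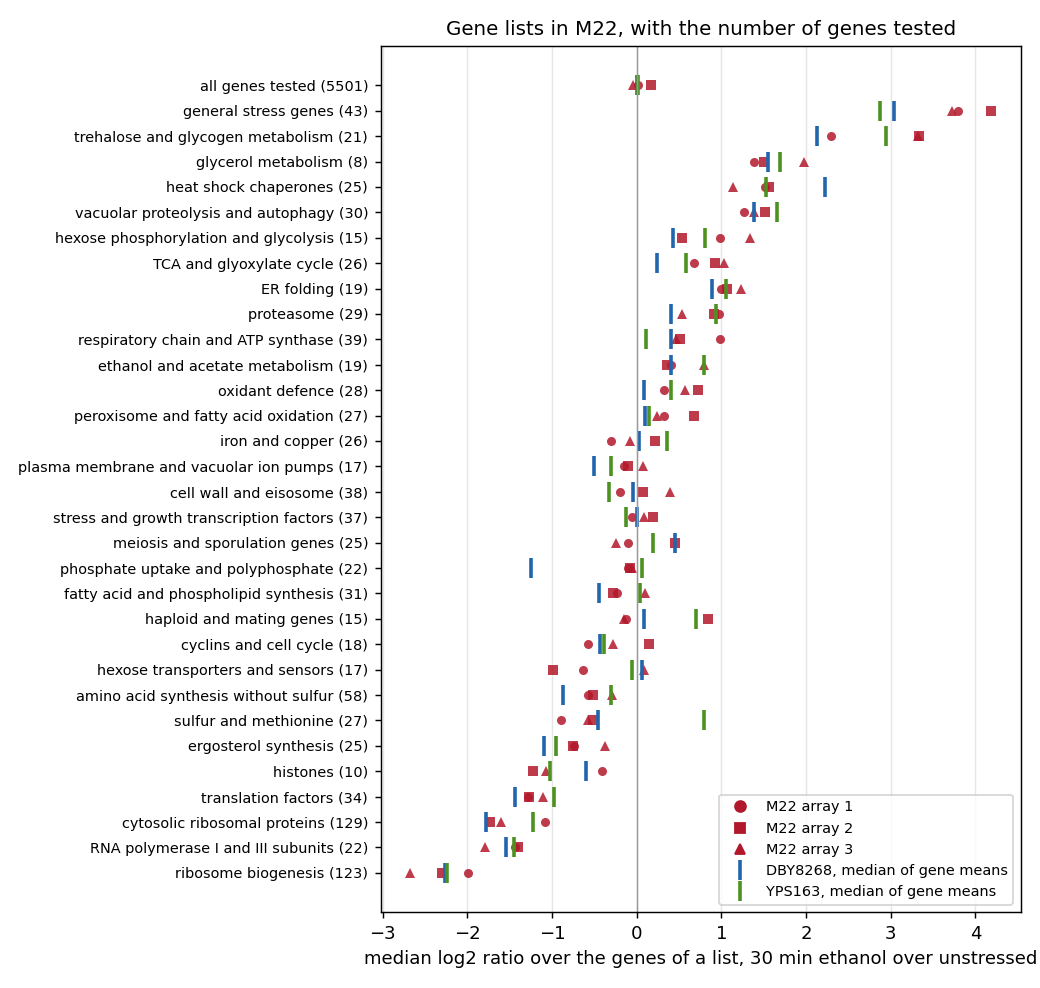
Median log2 ratio of each gene list on each of the 3 M22 arrays (red), with the medians of the DBY8268 and YPS163 gene means as blue and green bars and the number of genes tested in brackets. Ribosome biogenesis lies lowest and general stress genes highest, and the median of all genes lies near 0.

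Of 10 histone genes 9 fell, with HTA1 at -0.83, -1.61 and -1.25, and the variant histone HTZ1 did not pass at 0.20 ± 0.26. Cyclins and other cell cycle genes had 7 down and 3 up of 18 (38.9% and 16.7%). The G1 cyclin CLN2 stood at -2.11, -1.55 and -1.73 and the mitotic CLB2 at -1.46 ± 0.33. The rises were under 1 in size and none passed with arrays scaled to the same spread.

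Membrane lipid synthesis was divided between pathways. Ergosterol, the main sterol of yeast membranes, had 14 genes down and 3 up of 25, with a median of -0.73. The sterol methyl oxidase ERG25 stood at -2.27, -2.61 and -2.16, ERG6 at -2.20 ± 0.12 and the azole target ERG11 at -2.10, -2.18 and -2.11. The rises were ERG9, squalene synthase, at 0.93 ± 0.13, HMG2 at 0.70 ± 0.65 and ERG12 at 0.51 ± 0.31. The calls of HMG2 and ERG12 were lost without array 3. Fatty acid and phospholipid synthesis had 12 up and 13 down of 31 (38.7% and 41.9%). OPI3, a methyltransferase of phosphatidylcholine synthesis, stood at 3.57, 4.38 and 4.08 (4.01 ± 0.41, 16.1-fold), and the inositol synthase gene INO1 at 2.94 on 2 arrays. OLE1, the fatty acid desaturase, stood at -2.44, -3.33 and -2.75 (-2.84 ± 0.45). ELO1, an elongase of medium-chain fatty acids, rose by 1.05 ± 0.22.

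Amino acid synthesis outside the sulfur pathway had 32 genes down and 9 up of 58, a median of -0.48. The lysine pathway gave the lowest members, LYS4 at -2.38 ± 0.32 and LYS20 at -2.16 ± 0.36. The highest was ARG56 of arginine synthesis, at 3.57, 4.76 and 3.48. LEU2, of leucine synthesis, rose by 2.13 ± 0.21.

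In the sulfur and methionine list 14 genes fell and 7 rose of 27. Among the falls, MET14, the kinase that activates sulfate for reduction, stood at -1.62, -2.55 and -2.85 (-2.34 ± 0.64). MET5, a subunit of sulfite reductase, stood at -2.03, -2.32 and -1.98 (-2.11 ± 0.18). Its partner subunit MET10 followed at -1.63 ± 0.27 and the reductase gene MET16 at -1.11 ± 0.51. The rises included the regulator MET28 at 2.26 ± 0.75 and the sulfate transporter SUL2 at 1.25 ± 0.34.

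Nutrient uptake showed no single direction. Phosphate uptake and polyphosphate genes had 6 up and 6 down of 22 (27.3% each), near the shares over all genes. The acid phosphatase PHO3 stood at -2.52 ± 0.21, the phosphate transporter PHO84 at -2.20 ± 0.58 and the nucleotidase PHM8 at 4.02 ± 0.11. Iron and copper genes had 6 up and 9 down of 26 (23.1% and 34.6%), with FRE4 lowest and the low-affinity iron transporter FET4 at -2.47 ± 0.29. CCC2, a copper pump of the secretory pathway, rose by 1.42 ± 0.23.

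Of 38 cell wall and eisosome genes 16 rose and 12 fell (42.1% and 31.6%). The eisosome-associated FMP45 stood at 2.70, 5.02 and 5.51 (4.41 ± 1.50), HBT1 at 3.23, 4.03 and 4.81 (4.02 ± 0.79) and the wall protease YPS1 at 2.66 ± 0.33. In the first of these, array 1 was well below the others. CIS3 at -1.70 ± 0.89 and the glucan-remodelling GAS1 at -1.69 ± 0.42 fell most. Among ion pumps, PMA1, the proton pump of the plasma membrane, stood at -2.18, -2.88 and -1.56 (-2.21 ± 0.66), and its small partners PMP1 and PMP2 at -1.75 ± 0.34 and -1.61 ± 0.68. HSP30, which dampens that pump under stress, stood at 2.87, 1.27 and 1.81 (1.98 ± 0.81). ENA1, a sodium exporter, was nearly equal on the arrays, at 1.95, 1.94 and 2.00.

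Transcription factors of stress and growth had 14 up and 12 down of 37 (37.8% and 32.4%), near the shares over all genes. The largest rises were in CAT8 and ADR1, activators of genes for growth without glucose, at 2.19 ± 0.51 and 2.08 ± 0.91 (n = 2), and in GIS1 at 2.07 ± 0.50. TOD6 and IFH1, regulators of ribosome genes, stood at -2.17 ± 0.61 and -1.54 ± 0.06. HAP1, the haem-responsive activator, fell by 0.64 ± 0.12. Haploid and mating genes had 4 up and 4 down of 15, and meiosis and sporulation genes 4 up and 3 down of 25, beside 32.2% up and 29.8% down over all genes. SPS100, a spore wall gene, stood at 4.51, 4.31 and 5.35. The aquaporin genes AQY1 and AQY2 fell by 0.87 ± 0.33 and 1.33 ± 0.14.

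Where did M22 stand apart from both other strains? The test set the M22 response against the mean of the DBY8268 and YPS163 responses. Of 5244 genes tested 381 differed, which is 7.27%, with 292 higher (5.57%) and 89 lower (1.7%). Frames with no gene name made up 63 of the higher and 11 of the lower genes. Some of these gave nearly the same values, so the counts are not all of separate observations. The M22 mean lay outside those of both other strains in 284 of the higher and 76 of the lower genes. Of the 292 higher genes 249 had risen in M22, and of the 89 lower genes 50 had fallen in M22, beside 32.2% up and 29.8% down over all genes. The same M22 arrays enter both calls, so this overlap is partly built in and carries no test. A response is measured from where the strain stood before ethanol, and a higher response need not be a higher level.

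The widest gap was in HBT1, a gene known for a role in cell shape during mating. M22 stood at 3.23, 4.03 and 4.81, DBY8268 at 0.35, 1.14 and 1.10 and YPS163 at -0.31, 0.44 and 0.20. No M22 array overlapped those of the other strains. The difference was 3.54 ± 0.33 (SE, adjusted p = 2.26e-07). FMP45 was higher by 3.26 ± 0.50, from a mean of 4.41 in M22 against 1.41 in DBY8268 and 0.88 in YPS163. HBT1 (YDL223C) and FMP45 (YDL222C) are neighbouring frames on chromosome IV by their systematic names. Whether they are separate observations was not tested. The open reading frame YDR271C was higher by 3.23 ± 0.35, and its log-phase ratio of M22 over DBY8268 was -4.18 ± 0.31.

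The catalase CTT1 was higher by 2.45 ± 0.28 (adjusted p = 3.92e-06). M22 arrays ran from 4.55 to 4.97, DBY8268 stood at 1.49, 2.03 and 2.45 and YPS163 at 2.26, 2.83 and 2.53. The M22 arrays did not overlap those of the other strains. CYB2 was higher by 2.24 ± 0.28, with means of 5.21, 2.04 and 3.89 in M22, DBY8268 and YPS163. ENA1 was higher by 1.95 ± 0.49, ELO1 by 1.12 ± 0.20 and the endocytosis gene EDE1 by 0.82 ± 0.17. The M22 arrays of ENA1 and CYB2 lay above all arrays of the other strains, and those of ELO1 and EDE1 overlapped them. In log phase the M22 over DBY8268 ratio of ENA1 was -4.07 ± 0.27 (SD, n = 3). Its level in ethanol, described below, did not pass at -1.99 ± 0.68 (SE). The neighbouring ENA2 stood at 1.53 in M22, and whether the spots of ENA1 and ENA2 take up each other's transcripts was not tested. AQY2 was higher by 0.97 ± 0.20, but its M22 mean of -1.33 lay between -0.55 in DBY8268 and -4.07 in YPS163. HSP30 also lay between, with 1.98 in M22, 6.47 in DBY8268 and -1.04 in YPS163, and did not pass. HSP12 (0.75 ± 0.57) and HSP26 (-1.01 ± 0.38) did not pass either.

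By list, higher responses in M22 were counted for 8 of 38 general stress genes, 8 of 38 cell wall and eisosome genes, 7 of 28 oxidant defence genes, 6 of 25 TCA and glyoxylate genes and 5 of 20 trehalose and glycogen genes, against 5.57% of all genes. No member of these lists was lower, apart from MAE1 of the TCA list at -0.84. GAD1 was higher by 1.81 ± 0.19 and TSL1 by 0.91 ± 0.20. No gene differed in either direction among the 123 ribosome biogenesis, 125 ribosomal protein or 29 proteasome genes tested here. At the level of the list, ribosome biogenesis had medians of -2.32 in M22, -2.27 in DBY8268 and -2.24 in YPS163.

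**Figure D4:**
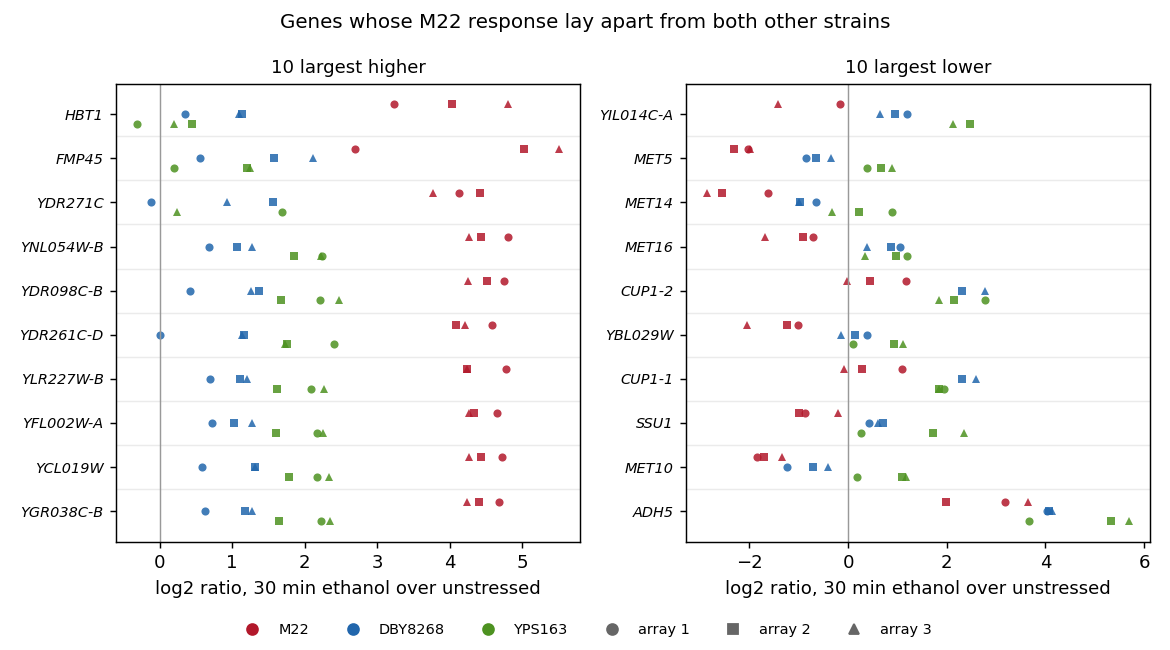
Log2 ratios on each array of M22 (red), DBY8268 (blue) and YPS163 (green) for the 10 genes with the highest and the 10 with the lowest response in M22 against the mean of the other strains. In the left panel all M22 arrays lie above all arrays of the other strains, and in the right panel those of ADH5 come closest to them.

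Of the 10 highest genes, 7 were frames with no gene name in the R64 annotation, YNL054W-B, YDR098C-B, YDR261C-D, YLR227W-B, YFL002W-A, YCL019W and YGR038C-B. Their M22 means ran from 4.30 to 4.51, against 0.77 to 1.07 in DBY8268 and 1.96 to 2.12 in YPS163. YNL054W-B, for example, stood at 4.81, 4.44 and 4.27 in M22, and its difference was 2.95 ± 0.19 (SE, adjusted p = 9.12e-10). These 7 gave nearly the same values within each M22 array, and they are not read as 7 separate observations. Their log-phase ratios of M22 over DBY8268 lay between -5.27 and -3.99. On that reading of the ratio, 6 of the 7 were lower in M22 than in DBY8268 in level in ethanol, described below. YNL054W-B stood at -1.77 ± 0.26 (SE) there, and YGR038C-B did not pass. With M22 as the log-phase denominator instead, YNL054W-B would stand at 8.77.

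The genes with a lower response in M22 included MET5, MET14, MET16 and MET10 of sulfate assimilation. MET5 differed by -2.13 ± 0.19 (SE, adjusted p = 9.02e-08), with DBY8268 at -0.85, -0.65 and -0.34 and YPS163 at 0.38, 0.67 and 0.89. MET14 differed by -2.04 ± 0.24, MET16 by -1.91 ± 0.23 and MET10 by -1.65 ± 0.28. In each of these genes the M22 arrays lay below those of both other strains. In the whole sulfur and methionine list 9 of 27 genes were lower and none higher, against 1.7% of all genes lower. On the log-phase arrays, which carry no test here, the M22 over DBY8268 ratio was 3.04 ± 0.48 (SD, n = 3) for MET5, 2.98 ± 0.26 for MET14, 2.39 ± 0.26 for MET16 and 3.12 ± 0.32 for MET10.

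The metallothionein genes CUP1-1 and CUP1-2, which bind copper, stood at 1.09, 0.29 and -0.08 and at 1.17, 0.44 and -0.02 in M22 and did not pass there. Against 2.46 and 2.54 in DBY8268 (n = 2) and 1.88 and 2.26 in YPS163, CUP1-1 and CUP1-2 differed by -1.74 ± 0.51 and -1.87 ± 0.45. Both calls were lost without array 2 or array 3. Both are copies of a repeated gene, and their spots cannot be told apart. SSU1, a sulfite exporter, was lower at -1.70 ± 0.43 (lost without array 1 or array 2), ADH5 at -1.55 ± 0.39 with a rise in all 3 strains, and the unnamed frames YBL029W and YIL014C-A at -1.85 ± 0.28 and -2.41 ± 0.51. YIL014C-A had 2 values in M22, -0.17 and -1.42, and 2 in YPS163. Among chaperone genes 4 of 25 were lower and none higher, against 1.7% lower and 5.57% higher over all genes. Lower were YDJ1 at -0.86, the Hsp90 partner CPR6 at -0.53, the exchange factor FES1 at -0.63 and CUR1, a sorting factor for aggregates, at -1.16.

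The number of genes that differed varied between settings. It was 325 with the 3 strains' ethanol arrays alone and the replicate number as a block, 132 without the block, 225 without M22 array 2 and 37 with arrays scaled to the same spread. The scaling brought ethanol and log-phase arrays, which differ in spread, to 1 common spread over all 26 arrays. With it the general stress median in M22 went from 3.41 to 2.23. Under that scaling HBT1, FMP45, CTT1, MET5, MET14 and MET16 passed, and CYB2, ENA1, ELO1, EDE1, AQY2, MET10, SSU1, ADH5, CUP1-1, CUP1-2, YIL014C-A, YBL029W and YGR038C-B did not. With array 3 of YPS163 MATa kept in the fit, CTT1, ADH5, AQY2, CUP1-1 and SSU1 did not pass. ADH5 also missed it under the replicate block and without array 2, as did ENA1 without array 2.

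Adding the log-phase gap to the difference in response gives the level in ethanol of M22 over DBY8268. This level rests on M22 being the numerator in log phase, which is likely but was read only from missing values. The titles of these arrays name DBY8268 first and M22 second. On the ethanol arrays the sample named first is the one read as numerator, so title order would instead point to DBY8268. With the log-phase ratio turned, 943 genes would be higher and 415 lower. In that case 243 of the calls below would change direction, a reading added after the data were seen. Of 5056 genes tested 371 were higher in M22 (7.34%) and 313 lower (6.19%). Frames with no gene name made up 25 of the higher and 112 of the lower genes. Some of these gave like values, so the counts and shares are not all of separate observations. In 85 of the higher and 188 of the lower genes the gap was already at least 1 in the same direction in log phase, and in none was it that large the other way.

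On the likely reading, the copper transporter CTR3 stood highest, at 4.17 ± 0.53 (SE, adjusted p = 0.000306), having been 5.70 ± 0.32 apart in log phase (SD, n = 2), and turned it would stand at -7.22. ATP6, an ATP synthase subunit encoded in mitochondrial DNA, was higher by 4.11 ± 0.44, and its log-phase arrays stood at 4.13, 4.48 and 5.62. CYC1, the main cytochrome c, was higher by 3.80 ± 0.32. For CYC1 the gap widened in ethanol, because it rose by 0.74 ± 0.35 in M22 and stood at -0.69, -0.85 and -0.53 in DBY8268. MET2, of methionine synthesis, was higher by 3.60 ± 0.46, NCA3 by 3.30 ± 0.50 and the unnamed YNR001W-A by 3.36 ± 0.71. In the respiratory list 25 of 37 genes were higher and 1 lower. In ergosterol synthesis 15 of 25 were higher and in the sulfur list 15 of 27, with none lower in either. Over all genes 7.34% were higher and 6.19% lower. MET5 was higher in M22 in ethanol by 1.55 ± 0.27, MET14 by 1.51 ± 0.33 and MET10 by 2.28 ± 0.40, while MET16 at 0.52 ± 0.32 did not pass. Turned, the respiratory list would have 3 genes higher and 23 lower, ergosterol synthesis 5 and 6 and the sulfur list 2 and 11.

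Of 27 general stress genes 3 were higher, 4 lower and the other 20 did not pass. This count and that of the chaperones below stand beside 7.34% higher and 6.19% lower over all genes. CTT1 was higher in M22 by 2.01 ± 0.39, GAD1 by 1.50 ± 0.27 and HBT1 by 2.38 ± 0.47. HSP30 was lower at -3.80 ± 0.55, and chaperones had 13 of 24 genes lower and none higher. CUP1-1 and CUP1-2 were lower at -3.02 ± 0.75 and -2.97 ± 0.66. The 6 lowest were unnamed frames between -8.21 and -8.68, with YER137C-A at -8.68 ± 0.76. The 6 gave like values and are not read as separate observations. Their responses to ethanol did not pass in M22, and YER137C-A had stood at -7.94, -7.11 and -7.74 in log phase. CTT1 did not pass at this level with arrays scaled to the same spread, or with array 3 of YPS163 MATa kept. With the log-phase ratio turned, CTT1 (3.45), GAD1 (2.62), HBT1 (3.94) and HSP30 (-5.18) would keep their direction, chaperones would have 2 genes higher and 7 lower, CUP1-1 and CUP1-2 would not pass, and YER137C-A would stand at 6.51.

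The other times had 1 array each, so their values carry no test. Of the genes that rose at 30 min, 1563 of 1719 with a value were above 0 at 15 min and 1571 of 1723 at 60 min. Of those that fell, 1459 of 1591 were below 0 at 15 min and 1399 of 1601 at 60 min. Array 1 at 30 min belongs to the same course, so these counts are not independent of the calls.

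HSP12 stood at 6.29 at 15 min, 8.77 at 45 min and 8.57 at 60 min. CTT1 stood at 6.07, 2.31 and 2.01 at these times, so its value at 15 min was above all 30 min arrays and the later ones below them. HSP30 went from 4.46 at 15 min to -0.44 and -1.38, below 0 at the later times. KAR2 stood at 2.93, 1.74 and 0.38 and the chaperone list median at 2.35, 1.13 and 1.23. Ribosome assembly genes were less far down at 15 min, with NOP7 at -0.75 and then -3.07 and -2.80, and a list median of -1.67, -2.07 and -1.91.

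The sulfate genes crossed 0 in this course. MET5 stood at -1.93, -0.64 and 0.82 at 15, 45 and 60 min, MET14 at -0.97, -0.38 and 0.88, and MET16 at -0.88, 0.50 and 1.58. MET10 stood at -1.05 at 15 min and 1.03 at 60 min. The median of the sulfur list was -0.88 at 15 min, 0.39 at 45 min and 1.03 at 60 min, against 0.01, -0.01 and 0.11 over all genes. CUP1-2 stood at 2.33 at 15 min, near the 30 min means of the other strains, and then at -0.08 and -0.60. GAD1, in contrast, was lowest at 15 min, at 4.18, and stood at 5.15 and 5.20 later.

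**Figure D5:**
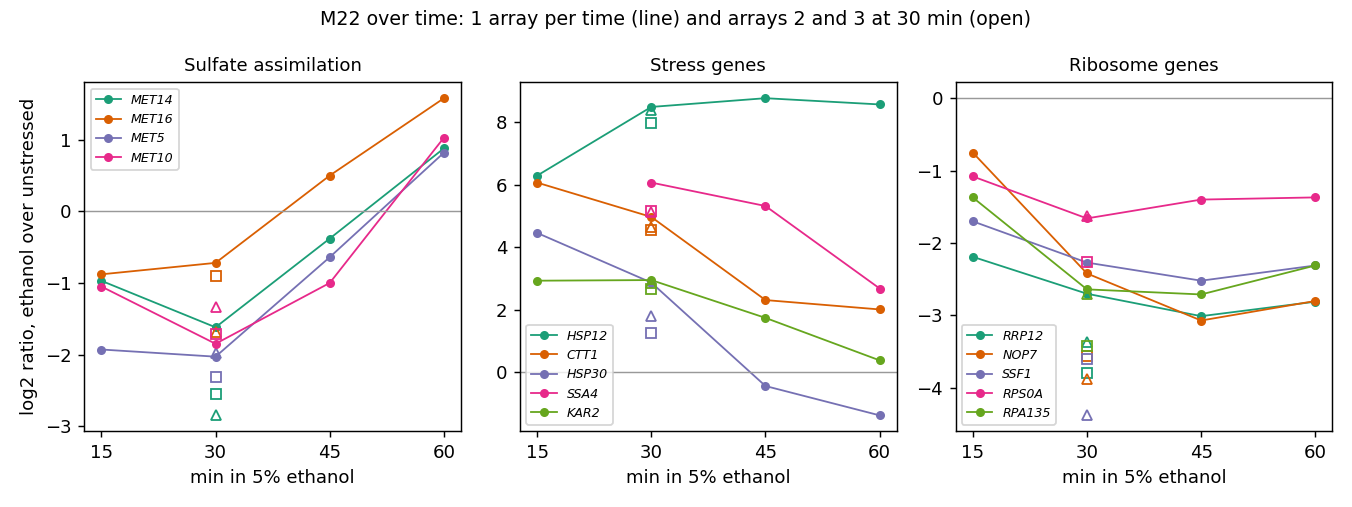
Log2 ratios in M22 against minutes in 5% ethanol, with 1 array per time on the lines (array 1 at 30 min) and arrays 2 and 3 at 30 min as open squares and triangles. The 4 sulfate assimilation genes go from below 0 at 15 min to above 0 at 60 min, and HSP30 goes from 4.46 to -1.38.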

How the data were processed

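Per the labels' protocols, total RNA came from a hot phenol extraction and its cDNA was coupled to Oyster dyes. The authors deposited a single log2 ratio for each frame on each array. That unit, its base and its direction come from the values. The sources used here do not give background correction, normalisation, spot filters or genome build. Precision is limited by the number of arrays, as intensities were not used. Gene names came from RefSeq R64, which matched 5830 frames and missed 465.

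Within each group, the deposited ratios of the dye-exchanged array correlated positively with the others, so arrays of a group run the same way. The 3 log-phase arrays of the hap1 deletion were turned together to make HAP1 negative, which leaves the spread within their group as it was. Ethanol is read as the numerator because the 108 genes at 3.5 or above lacked 15.4% of their log-phase M22 over DBY8268 values, against 3.9% for the 214 genes at -2 or below. M22 is read as the log-phase numerator because the 91 genes at -4 or below there lacked 29.9% of M22 ethanol values and 3.7% of DBY8268 ethanol values. This goes against the order in the titles, which name DBY8268 first. On the ethanol arrays, and on the hap1 deletion arrays before they were turned, the sample named first is read as numerator.

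In limma 3.58.1 under R 4.3.3, lmFit gave 1 mean per group to 26 arrays in 9 groups, and eBayes moderated the spread. The other groups served only this estimate: YPS163 against DBY8268 in log phase, YPS163 MATa, YPS163 MATa hap1D and YPS163 msn2D in ethanol, and hap1D against YPS163 MATa in log phase. Array 3 of the YPS163 MATa ethanol group was left out because its column correlated at 0.164 with the rest of its group, and at 0.747 when moved by 1 position. Genes needed 2 values in each group of a contrast, and Benjamini-Hochberg adjustment ran over all genes tested, with calls under 0.05. The script was tested on simulated data. Same-numbered ethanol arrays of the 3 strains deviated together (correlations of 0.22 to 0.65), so the numbers pair them, and a replicate block was an alternative. The members, the gene lists and the tests were chosen with earlier results of these data known. Named were the 12 largest rises and falls, the 3 largest of each list and members against its majority, the gene pairs, the extremes of both strain contrasts and 17 genes fixed by name. The text gives a selection of these, and some items are not reported here. Members named as not passing, and CUR1, CPR6, FES1 and the genes ranked by SD, were picked after their values were seen.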

Additional observations from a re-analysis of the deposited data

Results flagged for a closer look

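The responses below differed between M22 and the mean of DBY8268 and YPS163 by limma's test of that difference, the adjusted p being under 0.05. Higher in M22 were HBT1 by 3.54, FMP45 by 3.26, YDR271C by 3.23, CTT1 by 2.45, CYB2 by 2.24, ENA1 by 1.95, ELO1 by 1.12, AQY2 by 0.97 and EDE1 by 0.82 on the log2 scale. The unnamed frames YNL054W-B (2.95), YDR098C-B (2.94), YDR261C-D (2.93), YLR227W-B (2.92), YFL002W-A (2.91), YCL019W (2.89) and YGR038C-B (2.89) were higher to nearly the same extent. Lower in M22 were YIL014C-A at -2.41, MET5 at -2.13, MET14 at -2.04, MET16 at -1.91, CUP1-2 at -1.87, YBL029W at -1.85, CUP1-1 at -1.74, SSU1 at -1.70, MET10 at -1.65 and ADH5 at -1.55. No gene in these groups of 3 arrays was examined for a single array far from the rest by Dixon's limits.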

How the results depend on the processing

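The count of genes that changed in M22 ran from 2312 with arrays scaled to the same spread to 3646 with a replicate block, and from 2969 to 3045 with 1 M22 array left out. No called gene took the opposite call under any alternative run, apart from 243 levels in ethanol when the log-phase ratio was turned. The 381 genes that differed from the other strains became 37 with arrays scaled to the same spread, 132 in the 3 strains' ethanol arrays alone, 325 with a replicate block added to these, and 165 with YPS163 MATa array 3 kept as deposited. They ran from 225, without array 2, to 371 with 1 M22 array left out. The count of M22 over DBY8268 in ethanol, 684, became 388 with that YPS163 MATa array kept, 518 in its own arrays, 578 with a replicate block added to these, 956 with arrays scaled to the same spread (542 of them shared), 1358 with the log-phase ratio turned and 570 to 581 with 1 M22 array left out. Scaling to the same spread joined ethanol and log-phase arrays, which differ in spread. The causes of these shifts were not tested. The replicate block ended the response calls of COX9 and NEJ1, the difference of ADH5 and the level of EDE1, and no other call of a gene named in the text. Array 2 alone carried the dye exchange in M22, and intensities, which would show signal over background, were not used.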

Other observations

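Some genes varied far more between the M22 arrays than the median SD of 0.32. They were ranked by that SD after the values had been seen. The widest was UBI4, which encodes polyubiquitin, at 4.41, -0.25 and 5.28 (SD 2.97), against 2.85 ± 1.76 in DBY8268 and 3.74 ± 1.54 in YPS163. SGA1, a glucoamylase gene of sporulation, stood at 0.75, 4.49 and 1.21, the unnamed frame YER079W at 3.36, 6.62 and 2.92, and SDH6, an assembly factor of succinate dehydrogenase, at 2.51, 5.28 and 1.55. In each of these, array 2 was the one apart, above the others in 3 genes and below them in UBI4.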
